A study of Mus musculus with 13 samples.

Results

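LINE-1 (L1) retrotransposon sequences whose name marks them as an open reading frame (ORF) or a 3′ end were followed in the small RNAs of mouse male germ cells. Of the 262 retrotransposon consensus sequences listed in the summary tables, 10 met this rule by name alone: 2 ORF2 sequences (L1_Mm_orf2 and L1_Mus3_orf2) and 8 3′ ends (L1Md_A, L1Md_T, L1Md_F2, L1Md_F3 and L1_Mus1 to L1_Mus4). Each stands for many genomic copies, so no position in the genome is given. The cells came from C57BL6/J (spelled as labelled) mice aged 3 to 4 weeks and were sorted by Hoechst staining. A single-library set held spermatogonia (SG, n = 1), leptotene/zygotene spermatocytes (LZ, n = 2), pachytene/diptotene (spelled as labelled) spermatocytes (PD, n = 1) and round spermatids (RS, n = 1). A technical-replicate set held spermatogonia (SG_T, n = 2) and leptotene/zygotene spermatocytes (LZ_T, n = 2), each sequenced as 2 technical replicates, with reads of 50 and 100 bp, that were averaged. No label gives a genotype for any sample. The table headers of the technical-replicate set name a knockout of Pld6, the gene of a mitochondrial endonuclease of piRNA biogenesis, so genotype, sequencing run and depth cannot be told apart between the sets. Pld6 RNA itself is not measured by these small RNA tables, which leaves the header tag unchecked.

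L1 is the main autonomous retrotransposon of the mouse. A full-length copy has a 5′ promoter region, ORF1, which encodes an RNA-binding protein, ORF2, which encodes the endonuclease and reverse transcriptase that copy L1 RNA into new sites, and a 3′ end with a poly(A) tail. The A, T and Gf families (L1Md_A, L1Md_T, L1Md_Gf) include copies that can still move, whereas the F families are older. In the male germ line, L1 RNA is cut by PIWI proteins carrying complementary piRNAs, small RNAs of about this length class (24–33 nt here). Antisense piRNAs pair with L1 RNA, and sense piRNAs are made from L1 RNA itself, so the balance of the strands is a basic property of an L1 piRNA pool. Pachytene spermatocytes and round spermatids also hold a very large pool of pachytene piRNAs, most of which do not derive from retrotransposons.

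Values are RPM, the authors' unit of reads scaled to library size, of 24–33 nt reads, with sense and antisense reads added unless a strand is named. Read lists held 12541019 to 29956080 reads per sample in the single-library set and 1810805 to 10764026 in the technical-replicate set. The smallest sample, SG_T replicate 2, had the equivalent of about 265 reads of L1_Mm_orf2 and under 4 reads (3.83) of the L1_Mus3 3′ end, so the low 3′ ends were imprecise there. The meiotic miRNAs fixed as markers (miR-34b, miR-449a and the 3p arm of miR-34c) were counted in ppm of all miRNA reads. Their sum was 57 for SG, 686 and 691 for the LZ samples, 16823 for PD and 24715 for RS. It was 87.8 and 24.4 for SG_T and 202 and 108 for LZ_T, below both LZ samples. The 2 other-cell markers with a reference sequence were endothelial miR-126a and erythroid miR-451a. They summed to 392 to 1352 on that scale in the single-library set and to 5805 to 9582 in the technical-replicate set. Nearly all of each sum was miR-126a, at 392 to 1298 and at 5634 to 9503 in these sets. By contrast, miR-451a overlapped between the sets, at 54.1 in SG and at 72.3 and 46.6 in LZ_T. It was higher in SG_T (170 and 79.3) and lower in LZ, PD and RS. The part of these 2 markers in the differences between sets was not tested.

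The 2 ORF2 sequences had high piRNA levels in SG and LZ and low ones in PD and RS. For L1_Mm_orf2, SG had 5125 RPM, the 2 LZ samples 1676 and 4402 RPM, PD 265.5 RPM and RS 179 RPM. For L1_Mus3_orf2, SG had 2772 RPM, the LZ samples 1008 and 2457 RPM, PD 497 RPM and RS 289.7 RPM. The RPM ratio of L1_Mm_orf2 to L1_Mus3_orf2 therefore moved between stages, from 1.66 to 1.85 in SG and LZ to 0.534 in PD and 0.619 in RS. In the technical-replicate set this ratio was 2.24 and 2.62 in SG_T and 3.08 in both LZ_T samples. RPM is not per length, so levels are set side by side between samples and not between sequences.

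The 4 L1Md 3′ ends, like both ORF2 sequences, were lower in both LZ samples than in SG, while for the 4 L1_Mus 3′ ends the SG value lay between the 2 LZ values. In SG the L1Md 3′ ends were at 685 (T), 626 (F2), 477 (A) and 449.8 (F3) RPM, and the 4 L1_Mus 3′ ends were between 142 and 301 RPM. In the 2 LZ samples the L1Md_T 3′ end was at 298 and 617 RPM, the L1Md_A 3′ end at 221 and 467 RPM and the L1_Mus4 3′ end at 101 and 167 RPM, against 142 RPM in SG. LZ replicate 2 was above replicate 1 for 10 of 10 sequences, by 1.65 to 2.63 times, and over the 84 retrotransposons with at least 10 RPM the median of this ratio was 1.61, with 72 above 1.

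**Figure D1:**
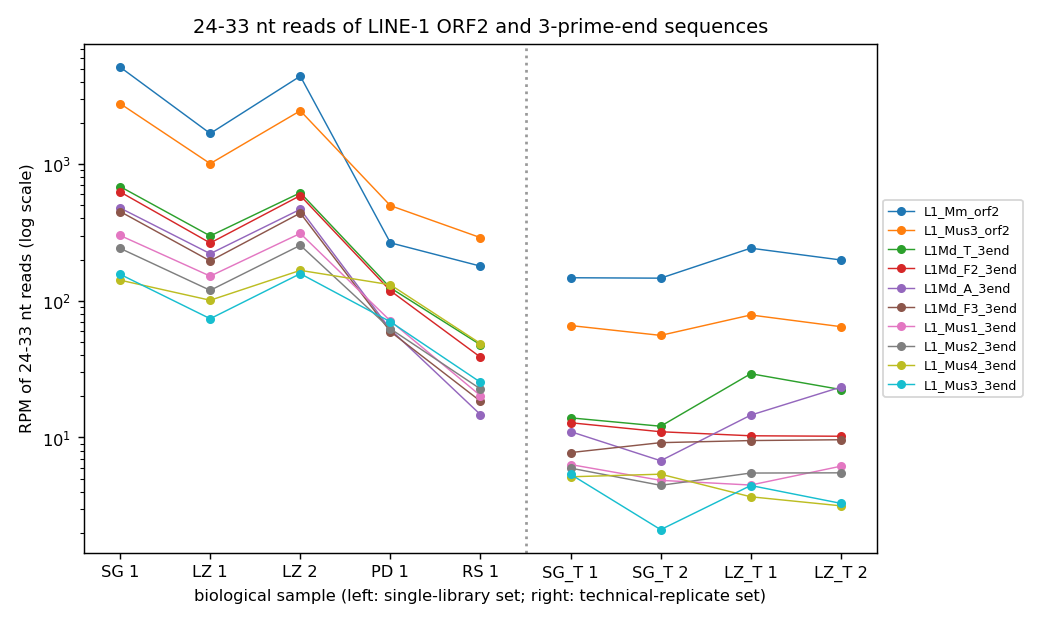
RPM of 24–33 nt reads (y axis, log scale) of the 10 L1 ORF2 and 3′-end sequences in each biological sample (x axis); each colour is 1 sequence, each point 1 sample with technical replicates averaged, and lines only link the points of a sequence within a set. L1_Mm_orf2 ran from 5125 RPM in SG to 179 RPM in RS and lay between 146 and 243 RPM in the technical-replicate set.

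The first comparison asked how piRNAs of these L1 sequences change along spermatogenesis in the single-library set. With 1 library for SG, PD and RS there is no test. A sequence was counted as changed where the means differed by more than 2-fold, no samples overlapped and a group reached 10 RPM. From SG to LZ, 0 of the 10 L1 sequences were past 2-fold in either direction, although 28.7% of the 87 retrotransposons at that level were higher and 1.15% lower in LZ. The LZ mean lay 1.06 times (L1_Mus4 3′ end) to 1.69 times (L1_Mm_orf2) below SG, less than the ratio between the LZ replicates for each of the 10. These are sorted bulk samples, in which fewer cells of a type and less RNA per cell cannot be told apart. The median log2 ratio was −0.49 for the L1 sequences and 0.23 for all 87.

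From LZ to PD, 8 of 10 were lower by more than 2-fold and 0 were higher, against 42.6% lower and 23.4% higher among 94 retrotransposons. L1_Mm_orf2 had the largest drop of the 10, 11.4-fold, followed by the L1Md_A 3′ end (5.58-fold) and the L1Md_F3 3′ end (5.33-fold). L1_Mus3_orf2 was 3.49-fold lower. The 2 exceptions were the L1_Mus3 3′ end, at 70.2 RPM in PD against 73.9 and 158 RPM in LZ, and the L1_Mus4 3′ end, at 131 RPM in PD, between its 2 LZ values. The median log2 ratio was −1.83 for the 10 and −0.67 for all 94. This step depended on the scaling. Reads of 24–33 nt made up 84.5% of all reads in PD and 39.3% and 45.2% in LZ, while miRNA reads made up 0.94% in PD and 7.69% and 11.2% in LZ. Per miRNA reads, 7 of the 10 were higher in PD and 0 lower, and relative to the total of all listed retrotransposons 3 were lower. The share of all retrotransposons past 2-fold was not counted on these scales, so these counts are not set against a background.

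From PD to RS, 8 of 10 were lower again and 0 higher, against 44.7% lower and 0% higher among 85 retrotransposons. Here the ORF2 sequences were the 2 that stayed within 2-fold, at 1.48-fold (L1_Mm_orf2) and 1.71-fold (L1_Mus3_orf2) lower. The L1Md_A 3′ end fell from 61.6 to 14.7 RPM, 4.19-fold, and the L1_Mus1 3′ end from 71.2 to 20.2 RPM, 3.52-fold. Relative to the listed total, 0 of 10 were past 2-fold, the listed total being 15251 RPM in PD and 6533 RPM in RS. Across the whole course, RS was below SG by 2.91-fold (L1_Mus4 3′ end) to 32.5-fold (L1Md_A 3′ end), and all 10 were past 2-fold, against 56.2% lower and 25.8% higher of 89 retrotransposons. This too depended on the scaling. Per 24–33 nt reads all 10 were lower, by 8.10-fold (L1_Mus4 3′ end) to 90.5-fold (L1Md_A 3′ end). Relative to the listed total 7 of the 10 were past 2-fold lower. Neither here nor for RS against PD was the share of all retrotransposons counted on the other scales. Per miRNA reads, which made up 15.7% of all reads in SG and 1.12% in RS, 2 were past 2-fold lower (L1_Mm_orf2, 2.03-fold, and the L1Md_A 3′ end, 2.31-fold) and 2 past 2-fold higher (the L1_Mus3 3′ end, 2.28-fold, and the L1_Mus4 3′ end, 4.84-fold). As a share of all listed retrotransposon RPM, the 10 sequences took 33.4% for SG, 18.6% and 26.2% for the LZ samples, 9.58% for PD and 10.8% for RS.

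Strand changed along with level. In SG, L1_Mm_orf2 had 2864 RPM sense and 2261 RPM antisense, an antisense share of 44.1%. The LZ samples had shares of 48.4% and 50.2%, PD had 63.0% (95% Wilson interval 61.4% to 64.5%, from read equivalents) and RS had 40.3% (38.3% to 42.3%). L1_Mus3_orf2 went from 48.8% antisense (SG) through 54.2% and 53.2% (LZ) to 85.0% (PD) and 68.8% (RS). PD was thus the most antisense stage for both ORF2 sequences, and it was above both LZ samples and above RS for 10 of 10 sequences. Among retrotransposons with at least 10 RPM in every sample compared, 77.9% of 68 were more antisense in PD than in both LZ samples and 70.3% of 74 were less and 29.7% more antisense in RS than in PD. From SG to LZ the share was higher in both LZ samples for 7 of 10 and lower for 2 of 10, against 51.5% and 28.8% of 66. Such intervals cover counting error only.

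The 3′ ends of the A and T families were mostly sense. The L1Md_T 3′ end went from 12.5% antisense (SG) through 11.1% and 10.1% (LZ) to 19.8% (PD) and 10.9% (RS). The L1Md_A 3′ end went from 17.0% (SG) through 15.3% and 15.2% (LZ) to 30.0% (PD) and 24.6% (RS). At the other end, the L1_Mus4 3′ end went from 42.2% (SG) through 66.0% and 48.8% (LZ) to 87.0% (PD) and 83.1% (RS). The F2 and F3 3′ ends lay between these, at 27.6% and 23.7% in SG and at 50.2% and 44.6% in PD. L1 5′ ends, listed separately for 6 families, were more antisense in PD than in both LZ samples for 4 of the 4 with at least 10 RPM, and their summed antisense share went from 50.7% (SG) through 53.9% and 46.2% (LZ) to 85.0% (PD) and 77.4% (RS).

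**Figure D2:**
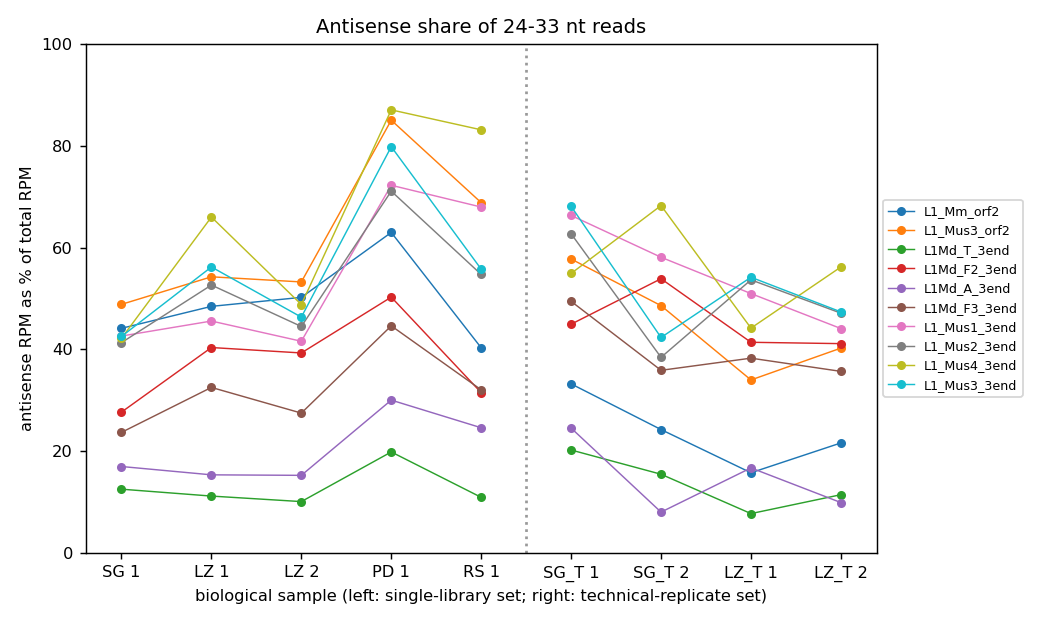
Antisense RPM as a percentage of total 24–33 nt RPM (y axis) for the 10 L1 sequences in each biological sample (x axis); each colour is 1 sequence and each point 1 sample. PD 1 holds the highest values of the single-library set for every sequence, from 19.8% (L1Md_T 3′ end) to 87.0% (L1_Mus4 3′ end).

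Read length differed by stage. The share of 28–33 nt reads among the 24–33 nt reads of the 10 sequences ran from 45.6% to 58.4% for SG and from 43.4% to 58.6% over the LZ samples. It ran from 78.6% to 86.4% for PD and from 62.9% to 82.4% for RS. Over all retrotransposons with at least 10 RPM the medians moved likewise, from 42.5% in SG to 76.5% in PD and 82.1% in RS. For L1_Mm_orf2 the longer strand changed sides. In SG 56.6% of sense and 41.7% of antisense reads were 28–33 nt, and the LZ samples had the same order, with 50.3% and 40.9% in replicate 1 and 55.9% and 43.9% in replicate 2. In PD the order was reversed, with 76.4% of sense and 87.0% of antisense reads, and in RS it was 51.8% and 79.2%. Sense reads were the longer in 9 of 10 sequences in SG, in 3 and 5 of 10 in the LZ samples, in 2 of 10 in PD and in 1 of 10 in RS. Among the retrotransposons with 10 RPM on each strand the shares were 52.2%, then 39.1% and 42.6%, then 43.2% and 33.3%.

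Sense reads of 19–23 nt dropped less from SG to RS than sense reads of 24–33 nt in each of the 10 sequences, whereas antisense reads of the 2 lengths dropped by similar folds in some. Sense 19–23 nt reads of L1_Mm_orf2 stood at 532 RPM (SG), 249 and 495 RPM (LZ), 272 RPM (PD) and 398 RPM (RS). Its antisense 19–23 nt reads stood at 511 RPM (SG), 212 and 407 RPM (LZ), 29.6 RPM (PD) and 31.1 RPM (RS). From SG to RS the sense 19–23 nt reads were thus 1.34-fold lower, while antisense 19–23 nt reads were 16.4-fold lower, sense 24–33 nt reads 26.8-fold lower and antisense 24–33 nt reads 31.3-fold lower. L1_Mus3_orf2 had sense 19–23 nt reads at 315 RPM in SG and 360 RPM in RS and antisense ones at 331 and 45.3 RPM. Its antisense reads dropped 7.31-fold at 19–23 nt and 6.79-fold at 24–33 nt, and those of the L1_Mus4 3′ end 1.44-fold and 1.48-fold. Sense 19–23 nt reads were higher in RS than in SG for 5 of the 10 sequences, and 53.7% of 54 retrotransposons did the same. Antisense 19–23 nt reads were higher in RS for 0 of 10, against 35.3% of 51. The median ratio of 24–33 to 19–23 nt reads over the 10 fell from 4.26 (SG) to 1.23 (PD) and 0.451 (RS), and over all retrotransposons at 10 RPM it was 4.44, 2.63 and 1.40.

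**Figure D3:**
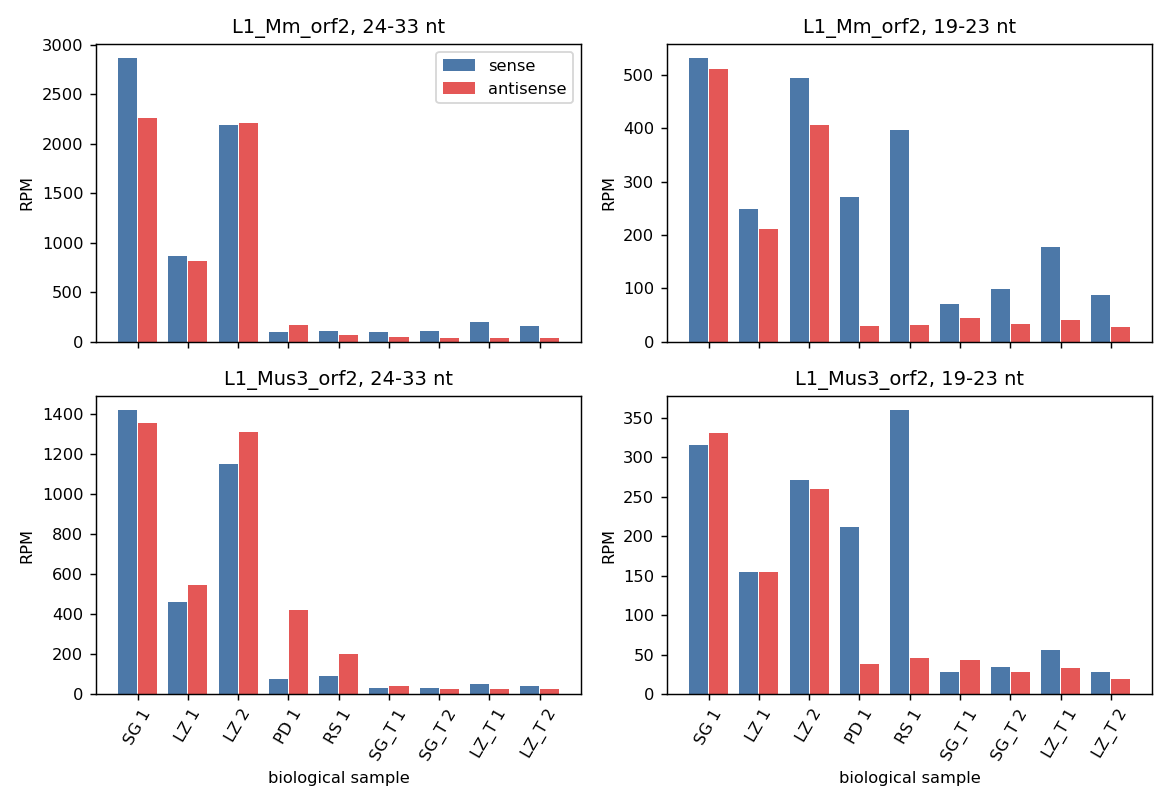
Sense (blue) and antisense (red) RPM (y axes, from 0) of L1_Mm_orf2 (top) and L1_Mus3_orf2 (bottom) for 24–33 nt (left) and 19–23 nt reads (right) in each biological sample. Sense 19–23 nt reads of L1_Mm_orf2 stood at 532 RPM in SG and 398 RPM in RS, whereas its antisense 19–23 nt reads went from 511 to 31.1 RPM.

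The second comparison set LZ_T against SG_T, the step from spermatogonia to leptotene/zygotene spermatocytes within the technical-replicate set. Technical replicate 2 was mostly above replicate 1, with a median ratio over the 10 sequences of 1.79 and 1.65 for SG_T and of 1.60 and 1.07 for LZ_T, and single ratios from 0.464 to 4.04. L1_Mm_orf2 was at 147 and 146 RPM in SG_T (technical replicates at 113 and 181 RPM, and at 108 and 185 RPM) and at 243 and 199 RPM in LZ_T (194 and 291 RPM, and 192 and 206 RPM). L1_Mus3_orf2 was at 65.9 and 55.8 RPM in SG_T and at 78.7 and 64.7 RPM in LZ_T, with overlapping groups. The L1Md_T 3′ end was at 13.9 and 12.1 RPM in SG_T and at 29.3 and 22.4 RPM in LZ_T. The L1Md_A 3′ end was at 11 and 6.76 RPM in SG_T and at 14.6 and 23.4 RPM in LZ_T. Neither of these 2 3′ ends overlapped between the groups.

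With limma on log2(RPM + 1) and Benjamini-Hochberg adjustment over 58 retrotransposons, which held all 10, 2 of the 10 L1 sequences rose and 0 fell, against 43.1% of the 58 that rose. The L1Md_A 3′ end rose by 1.01 (SE 0.38, adjusted p = 0.0478) and the L1Md_T 3′ end by 0.93 (SE 0.34, adjusted p = 0.0449). Both calls lay just under the threshold, and both were lost (adjusted p = 0.0657 each) when limma's prior followed intensity. Without any 1 of the 4 samples, 0 or 1 of the 10 were called. L1_Mm_orf2 differed by 0.58 (SE 0.33, adjusted p = 0.174) and L1_Mus3_orf2 by 0.23 (SE 0.33, adjusted p = 0.621). The median log2 difference was 0.14 for the 10 and 0.80 for all 58. The listed total was 3745 and 2800 RPM in SG_T and 22388 and 23471 RPM in LZ_T. Relative to it, all 10 fell, with a median log2 difference of −2.49. Because the total itself rose, a sequence of unchanged RPM falls on this scale. In LZ the total was 22092 and 37677 RPM, although 91.9% of 136 retrotransposons were lower in LZ_T than in LZ. The share of all retrotransposons that fell on this scale is not given. The 10 sequences made up 7.52% and 9.22% of the listed RPM in SG_T and 1.80% and 1.48% in LZ_T.

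The antisense share in this set went the other way from that in the single-library set for both ORF2 sequences. L1_Mm_orf2 had 33.2% and 24.2% antisense in SG_T and 15.7% and 21.6% in LZ_T. L1_Mus3_orf2 had 57.7% and 48.6% in SG_T and 34% and 40.2% in LZ_T. All LZ_T values of these 2 sequences lay below all SG_T values, and the share was lower without overlap in 5 of 10 sequences and higher in 0, against 33.3% in each direction of the 15 retrotransposons with at least 10 RPM in every sample, a level not required of the 10. In the limma test of the antisense to sense ratio, 5 of the 10 reached the mean of 10 RPM that was required, and 0 were called, against 12.5% of 24 retrotransposons. At an unadjusted p under 0.05, 2 of the 5 were lower, and the share of all 24 under it was not counted. L1_Mus3_orf2 differed by −0.92 (SE 0.28, adjusted p = 0.123), the L1Md_T 3′ end by −1.01 (SE 0.27, adjusted p = 0.123) and L1_Mm_orf2 by −0.81 (SE 0.34, adjusted p = 0.173).

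The third comparison set LZ_T against LZ, the stage that both sets hold by label with 2 replicates. The summed meiotic markers were at 202 and 108 ppm of miRNA reads in LZ_T and at 686 and 691 ppm in LZ. All 10 L1 sequences were lower in LZ_T, against 91.9% lower and 2.21% higher of 136 retrotransposons. L1_Mm_orf2 was at 3039 ± 1928 RPM in LZ and 221 ± 30.9 RPM in LZ_T (SD, n = 2 each), a log2 difference of −3.62 (SE 0.44, adjusted p = 3.9e-14). It had the smallest difference of the 10. L1_Mus3_orf2 was at 1732 ± 1025 RPM and 71.7 ± 9.94 RPM, a difference of −4.44. The L1Md_F2 3′ end, at 427 ± 229 RPM and 10.2 ± 0.057 RPM, had the largest on this scale, −5.14. The L1Md_A and L1Md_T 3′ ends differed by −4.05 and −4.01, and the 4 L1_Mus 3′ ends by −4.50 to −5.12. By the ratio of group means the L1_Mus1 3′ end had the largest drop, 43.5-fold, against 41.6-fold for the L1Md_F2 3′ end.

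The median was −4.62 for the 10 and −2.87 for all 136, and 10 of 10 lay below the median of all. This gap depended on the added 1 RPM and on the low sequences. Among the 84 with at least 10 RPM in either group, and without the added 1 RPM, the median log2 ratio was −4.98 for the 10 and −5.15 for all. The 6 L1 5′ ends were also lower, with log2 differences of −1.14 (L1Md_Gf) to −4.58 (L1_Mus3). The summed RPM of the 10 sequences was 23.1 and 19.99 times that of the 5′ ends in LZ and 5.31 and 7.22 times in LZ_T. limma gave every retrotransposon the same SE of 0.44 here, so the p-values assume a spread common to all sequences, while the LZ replicates differed together. By fold alone, 10 of 10 were past 2-fold lower with no overlap, against 90.5% lower and 3.57% higher of 84 retrotransposons at 10 RPM. SG_T against SG could not be tested. All 10 were past 2-fold lower, by 26.9-fold (L1_Mus4 3′ end) to 53.7-fold (L1_Mus1 3′ end), as were 100% of the 70 retrotransposons at 10 RPM.

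**Figure D4:**
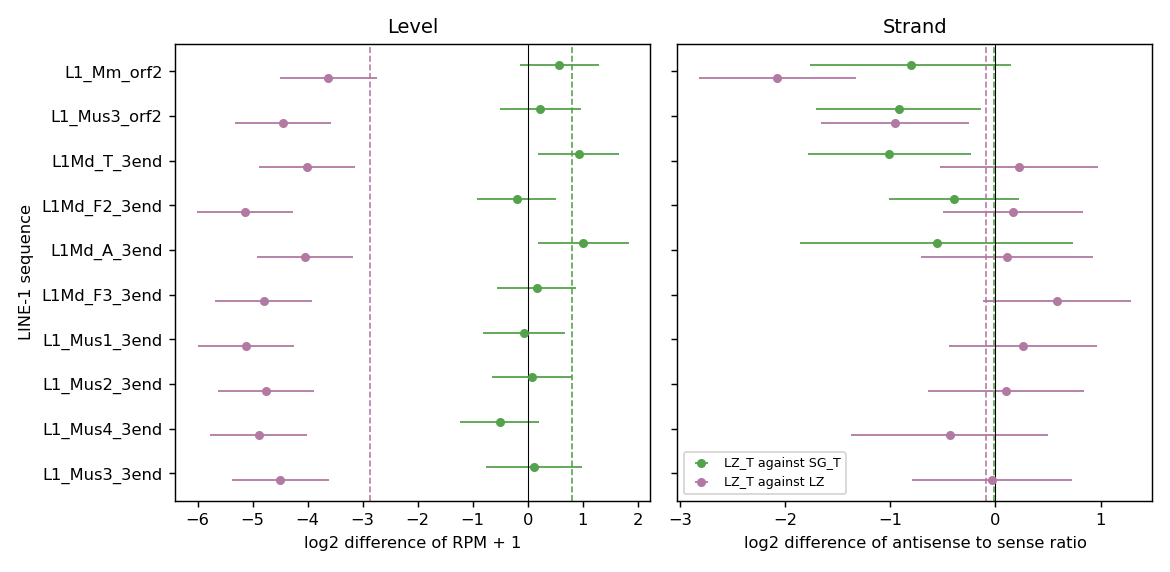
Log2 difference of RPM + 1 (left) and of the antisense to sense ratio (right) for LZ_T against SG_T (green) and LZ_T against LZ (purple), 2 samples in each group, with the limma estimate as a point and its 95% confidence interval as a bar; dashed lines mark the median of all retrotransposons tested. Both comparisons share the LZ_T samples. All 10 sequences lay left of the purple line in level, a scale on which the added 1 RPM understates changes of low values. L1_Mm_orf2 at −2.07 lay farthest left in strand ratio.

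L1_Mm_orf2 lost antisense more than sense reads between the sets. Its antisense reads were at 812 and 2210 RPM in LZ and at 38.2 and 42.9 RPM in LZ_T, and its sense reads at 864 and 2192 RPM in LZ and at 204 and 156 RPM in LZ_T. Its antisense to sense ratio fell by 2.07 on the log2 scale (SE 0.32, adjusted p = 0.000902), and that of L1_Mus3_orf2 fell by 0.96 (SE 0.30, adjusted p = 0.027). The other 8 were not called, with differences from −0.43 (L1_Mus4 3′ end) to 0.59 (L1Md_F3 3′ end). In all, 2 of 10 fell and 0 rose, against 28.2% that fell and 23.9% that rose of 71. The call for L1_Mus3_orf2 did not hold with a replicate block (adjusted p = 0.0851) or without any 1 of the 4 samples (adjusted p from 0.0726 to 0.289), whereas L1_Mm_orf2 stayed past the threshold in these fits. Of the 4 L1 5′ ends tested, 3 also fell in this ratio.

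Reads of 19–23 and 34–48 nt dropped less than those of 24–33 nt between LZ and LZ_T. For 19–23 nt reads, 10 of 10 were lower by 2.01 (L1_Mm_orf2) to 3.44 (L1Md_F2 3′ end) on the log2 scale, against 62.1% lower and 2.27% higher of 132. For 34–48 nt reads, the L1Md_F2 3′ end fell by 3.29 (adjusted p = 1.4e-05) and the L1Md_F3 3′ end by 2.75 (adjusted p = 0.000195), against 28.9% lower and 2.22% higher of 45. Within each length class limma gave the 10 the same SE, 0.22 at 11–18 nt, 0.36 at 19–23 nt and 0.63 at 34–48 nt. These p-values therefore assume a spread common to the sequences. L1_Mm_orf2, tested with both strands added, was not called at 34–48 nt. Its sense reads were at 39.0 and 135 RPM in LZ and 97.7 and 35.3 RPM in LZ_T. Its antisense reads were at 25.45 and 79.1 RPM in LZ and lower in LZ_T, at 23.4 and 9.81 RPM. For 11–18 nt reads 4 of 10 fell, by 0.59 to 0.72, against 7.25% lower and 10.7% higher of 262. All 262 listed retrotransposons reached the level for testing at this length. With mismatches allowed in the alignment, reads this short may come from elsewhere, which was not tested. Without any 1 of the 4 samples, 0 or 1 of the 10 were called in each of these last 2 length classes. The ratio of 24–33 to 19–23 nt reads was lower in LZ_T for 10 of 10, by 1.59 to 2.00 on the log2 scale, against 80.9% lower and 3.64% higher of 110. The ratio of 24–33 to 34–48 nt reads was also lower for 10 of 10, by 1.85 to 3.76, against 86.7% lower and 6.67% higher of 45. In LZ_T against SG_T, limma called 0 of the 10 in these 3 length classes and 2 ratios. The share of all retrotransposons that rose was 1.15% at 11–18 nt, 7.96% at 19–23 nt and 24.1% at 34–48 nt, 14% in the ratio to 19–23 nt reads and 0% in that to 34–48 nt reads, and none fell. At an unadjusted p under 0.05 only the ratio of 24–33 to 34–48 nt reads of the L1Md_F2 3′ end was higher, by 1.02.

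The step from spermatogonia to leptotene/zygotene spermatocytes was also compared between the sets. In a limma fit of stage by set, 0 of the 10 L1 sequences differed, against 7.41% that changed more upward and 11.9% more downward in the technical-replicate set of 135 retrotransposons. At an unadjusted p under 0.05, 3 of the 10 differed, each more upward in the technical-replicate set. The share of all 135 under that unadjusted threshold was not counted.

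Over the 9 biological samples, the 3 retrotransposons outside the L1 ORF and 3′-end group whose log2(RPM + 1) was most like that of L1_Mm_orf2 were IAP1-MM_I (Pearson's r = 0.973), RLTR10A (0.970) and L1Md_A_5end (0.965), among 71 whose mean reached 10 RPM. The first is an IAP endogenous retrovirus sequence and the third is the 5′ end of an active L1 family. Within the group, likeness ran from 0.965 for the L1Md_A 3′ end to 0.742 for the L1_Mus4 3′ end. The samples share the scaling to total reads and fall into the 2 sets, so these values are descriptions.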

How the data were processed

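Small RNAs of 13 libraries (9 biological samples) were analysed. For each library the authors deposited a list of adapter-trimmed sequences (cutadapt, per the submitters' processing notes) with raw read counts, and a table of RPM values by strand and length. Per the study's methods, the authors first took out miRNAs and abundant noncoding RNAs. SeqMap then aligned what was left, with mismatches allowed, to consensus sequences of mouse retrotransposons, a read with several matches was split evenly among them, and sums were scaled to library size. Values are therefore not whole reads (32.2% to 58.8% of values above 0 lay within 0.1 reads, plus rounding, of a whole read), related L1 sequences share reads, and no count test was run. In the SG list 1 line lacked a count and was skipped. Between 6 and 8 rows per table that name no retrotransposon were left out.

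Groups came from the stage and replicate type in the sample titles. Level was tested with limma 3.58.1 in R 4.3.3 on log2(RPM + 1) over retrotransposons averaging 1 RPM or more, and strand on log2((antisense + 1)/(sense + 1)) at a mean of at least 10 RPM. Fold changes on this scale understate changes of low values. Benjamini-Hochberg adjustment ran over all retrotransposons tested, with a threshold of 0.05. Fits of other length classes and of stage by set were added after seeing the data. Scripts were tested on simulated data. A miRNA read was one of 18 to 26 nt whose first 18 nt match a RefSeq mature miRNA (GRCm38.p6). Labels call replicates biological without naming animals, so p-values measure the spread between these samples. Where limma gave the sequences the same SE, that spread is pooled over sequences. No library pair held identical values. The sequences reported and the lists were chosen with earlier results of these data known. All L1 ORF and 3′-end sequences, the L1 5′ ends as a group and the 3 sequences most like L1_Mm_orf2 are named.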

Additional observations from a re-analysis of the deposited data

Results flagged for a closer look

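For 4 sequences the 2 sets moved in opposite directions in RPM from spermatogonia to leptotene/zygotene spermatocytes. Both LZ samples lay below SG and both LZ_T samples above both SG_T samples. Relative to the total of all listed retrotransposons these 4 fell in LZ_T against SG_T, so the opposite directions are those of RPM. That total itself rose from SG_T to LZ_T. Some gaps were small. The L1Md_F3 3′ end had 449.8 RPM in SG and 438 RPM in LZ replicate 2, and 9.16 RPM in SG_T replicate 2 and 9.49 RPM in LZ_T replicate 1. The change in the technical-replicate set exceeded that in the single-library set by 1.49 (log2, SE 0.69) for L1_Mm_orf2, 1.58 (SE 0.68) for the L1Md_A 3′ end, 0.78 (SE 0.65) for the L1Md_F3 3′ end and 1.60 (SE 0.64) for the L1Md_T 3′ end. In a limma fit of stage by set over 135 retrotransposons the adjusted p was 0.128, 0.117, 0.467 and 0.0941 in that order, so none of the 4 differences passed the correction, and 0 of the 10 L1 sequences were called against 26 of all 135. Unadjusted, 3 of the 10 were under 0.05, and the share of all 135 under it was not counted. The 4 were picked for their opposite directions, which fixes the sign of these differences. SG had 1 sample and was assumed to vary like the other groups.

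For 3 sequences the antisense share was higher in both LZ samples than in SG and lower in both LZ_T samples than in both SG_T samples. The change in the technical-replicate set minus that in the single-library set was −15.2 percentage points for L1_Mm_orf2, −21.0 for L1_Mus3_orf2 and −20.3 for the L1Md_F2 3′ end. SG_T replicate 2 held the equivalent of about 265 reads of L1_Mm_orf2, 101 of L1_Mus3_orf2 and 20 of the L1Md_F2 3′ end. For each of the 3, its 95% Wilson interval overlapped that of LZ_T replicate 2. For the L1Md_F2 3′ end these were 34.2% to 74.2% and 32.2% to 50.3%. These differences of shares were not tested.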

How the results depend on the processing

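All 10 L1 sequences stayed lower in LZ_T than in LZ under every alternative run, and the ratio of 24–33 to 34–48 nt reads was called for 10 and that of 24–33 to 19–23 nt reads for 9 or 10 without any 1 sample. The rise in LZ_T over SG_T was fragile. Its 2 calls became 0 with a pseudocount of 0.1 RPM, with no filter, with technical replicate 2 only, with a spread shared by SG_T, LZ_T and LZ, per 24–33 nt reads and with an intensity trend in the prior, 1 with technical replicate 1 only, and 0 to 1 without 1 sample. Per miRNA reads 1 sequence fell instead, and relative to the listed total 10 fell, with L1_Mm_orf2 at −2.24, L1_Mus3_orf2 at −2.57 and the 3′ ends of L1_Mus2 at −2.49, L1_Mus3 at −2.31, L1Md_A at −1.66, L1Md_F3 at −2.50 and L1Md_T at −1.79 on the log2 scale. The antisense to sense ratio in LZ_T against SG_T, with 0 calls, gave 2 lower with a pseudocount of 5 RPM and 1 with technical replicate 1 only. In LZ_T against LZ its 2 calls became 1 with a pseudocount of 0.1 RPM, 5 with one of 5 RPM (3 higher, 2 lower), and 1 (lowest and highest) without 1 sample.

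For other lengths in LZ_T against LZ, the 4 calls at 11–18 nt became 0 with technical replicate 1 only, 1 with technical replicate 2 only and 0 to 1 without 1 sample. The 2 calls at 34–48 nt became 4 with a pseudocount of 0.1 RPM, 1 and 4 with technical replicate 1 or 2 only, and 0 to 1 without 1 sample. In LZ_T against SG_T, the ratio of 24–33 to 34–48 nt reads gave 1 call with a pseudocount of 5 RPM, and that of 24–33 to 19–23 nt reads 0 to 1 without 1 sample. The change by set, with 0 calls, gave 1 lower per miRNA reads and 7 lower relative to the listed total, where the difference turned to −2.36 (L1_Mus1 3′ end), −2.21 (L1_Mus2 3′ end), −1.97 (L1_Mus3 3′ end), −1.94 (L1_Mus3_orf2), −2.42 (L1Md_F2 3′ end) and −2.07 (L1Md_F3 3′ end).

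Between stages, the 8 sequences lower in PD than LZ became 3 relative to the listed total, and 7 were higher per miRNA reads. The 8 lower in RS than PD became 0 relative to the listed total. The 10 lower in RS than SG became 4 per miRNA reads (2 higher, 2 lower) and stayed 10 per 24–33 nt reads. These recounts covered the 10 sequences only. The log2 ratio of summed RPM turned from −0.65 to 0.0154 (LZ to SG) and from −2.26 to 1.14 (PD to LZ) per miRNA reads, from −1.05 to 0.17 (RS to PD) relative to the listed total, and from 0.48 to −0.26 per miRNA reads and −2.35 relative to the listed total (LZ_T to SG_T). The difference in antisense share kept its sign between stages. It was 4.42 points for LZ minus SG (3.27 as the median of the shares, 4.29 without L1_Mm_orf2), 22.7 for PD minus LZ (22.0 and 27.3) and −13.6 for RS minus PD (−19.5 and −10.0). For SG_T minus SG it turned positive as the median of the shares (4.53), without L1_Mm_orf2 (9.78) and without SG_T replicate 2 (1.15, against −7.94 without replicate 1). The cause of these changes was not tested.

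Deviations of same-numbered samples correlated at 0.109 between SG_T and LZ_T and at −0.194 between LZ and LZ_T, and 2 pairs do not show that the numbers pair samples. With a replicate block the calls were 2 for level in LZ_T against SG_T, 10 for level in LZ_T against LZ, and 0 and 1 for the strand ratio, and 1 at 34–48 nt in LZ_T against SG_T. With crossed pairing, chosen after seeing the data, LZ_T against LZ gave 3 higher and 128 lower retrotransposons in level and 19 and 21 in strand ratio. The scalings of RS against SG, the intensity trend and all fits of other lengths and of the change by set were also chosen after seeing the data.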
